A study of Mus musculus with 24 samples.

Results

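The transcripts that heart and skeletal muscle of wild-type (WT) mice had in common, against liver and brain, were described from 12 of the 24 arrays of the series. Of these, 6 samples came from striated muscle (3 hearts and 3 skeletal muscles) and the comparison group held 3 livers and 3 brains. Each tissue was sampled from the same 3 female mice, called A and B (15 months old) and C (14 months old) here in the order of their labels, which carried the unmodified Rap1 (Terf2ip) gene and belonged to a line backcrossed 4 times to C57BL/6N (C57BL6 in the labels). The other 12 arrays came from the Rap1 I312R knockin (KI) females called D and E (15 months) and F (14 months), whose allele was made with CRISPR/Cas9, and served here only to see whether the same genes differed in other mice. A gene was counted as shared when heart and skeletal muscle each differed from liver and each differed from brain, all 4 differences having the same direction and the weakest of them passing limma at a Benjamini-Hochberg adjusted p under 0.05 over the 17095 genes tested. For each such gene the smallest of the 4 differences is given on the log2 scale, so that every other difference was at least as large.

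Signals were Cy3 intensities of 1-colour Agilent arrays, and a level is the log2 signal of a gene's probe with the 75th percentile of its array set to 0. Levels of different genes come from different probes and are not set against each other. The 75th percentile signal of the WT arrays ranged from 356.1 to 2198.4, lowest in skeletal muscle (356.1 to 512.0) and highest in brain (1315.7 to 2198.4), and between 49.4% and 68.4% of the probes were well above background. RNA of heart and skeletal muscle was prepared with a fibrous tissue kit and zirconia beads, whereas RNA of liver and brain was prepared with the standard kit of the same maker and glass beads, so the kind of tissue and the extraction cannot be told apart. The livers lay on slide 1, the brains on slides 1 and 2, the hearts on slides 2 and 3 and the skeletal muscles on slide 3, so of the 4 differences only that between heart and brain could be taken within a slide. Which skeletal muscle was dissected is not given in the sources used here. Since whole tissues were measured, more cells of a type and more RNA per cell cannot be told apart.

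The labels of the 4 tissues matched their defining genes. All 10 hepatocyte markers were well above background on the liver arrays, all 8 neuron markers on the brain arrays, all 10 cardiomyocyte markers on the heart arrays and all 10 skeletal myofibre markers on the skeletal muscle arrays. Detection alone did not separate the tissues, since 9 of the skeletal myofibre markers were also well above background on all brain arrays. The hepatocyte list had a mean level of 8.61 to 9.48 in liver and of -0.68 or less on the other WT arrays. The neuron list was at 5.42 to 5.64 in brain and at -2.42 or less on the others. The mean level of the skeletal myofibre list was between 7.89 and 8.28 in skeletal muscle and between -3.43 and -3.2 in heart. The cardiomyocyte list showed the opposite, at 5.76 to 7.33 in heart and -3.29 to -2.74 in skeletal muscle. Within tissues, arrays correlated at 0.977 to 0.991 across genes.

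Striated muscle is built from sarcomeres, in which myosin thick filaments slide along actin thin filaments anchored at the Z-disc. Calcium released from the sarcoplasmic reticulum (SR) binds troponin and starts contraction, and ATP is supplied by creatine phosphate, by glycogen and glucose and, above all in the heart, by oxidation of fatty acids in abundant mitochondria. Heart and skeletal muscle share this plan, but many of its parts exist as cardiac and skeletal isoforms encoded by separate genes. Several metabolic enzymes also have other forms, some of them broadly expressed and some typical of liver or of brain.

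Of the 17095 genes, 1880 (11.0%) were higher and 1061 (6.21%) were lower in both striated muscles than in both other tissues. Among the higher genes the median smallest difference was 1.24, with 1176 genes at 1 or more, 517 at 2 or more and 162 at 4 or more. Among the lower genes it was -1.23, with 679, 256 and 68 genes past the same sizes. Most shared genes were measured on both sides, since 1527 of the higher and 779 of the lower genes were well above background on all 12 arrays. At the other end, 51 higher genes were not well above background on any liver or brain array and 109 lower genes were not well above background on any heart or skeletal muscle array. Of the 1880 higher genes, 1872 had all 6 striated arrays above all 6 liver and brain arrays, and 1060 of the 1061 lower genes had them all below. Other probes of the shared genes did not always follow. Of 994 such probes well above background on at least 6 WT arrays, 710 had the direction of the gene in all 4 differences.

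The excess of higher over lower genes depended on how arrays were centred. The median of all genes was between 0.06 and 0.279 above 0 in the 4 differences, and under the other scalings it ranged from -0.212 to 0.501. Higher genes made up 63.9% of the shared calls, but 53.7% when the 75th percentile was taken over detected genes only and 53.6% when the median of those genes was used. The number of calls also fell when the slide was fitted. With the slide fitted as a block, 619 genes remained higher and 337 lower (613 and 331 of them the same genes).

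**Figure D1:**
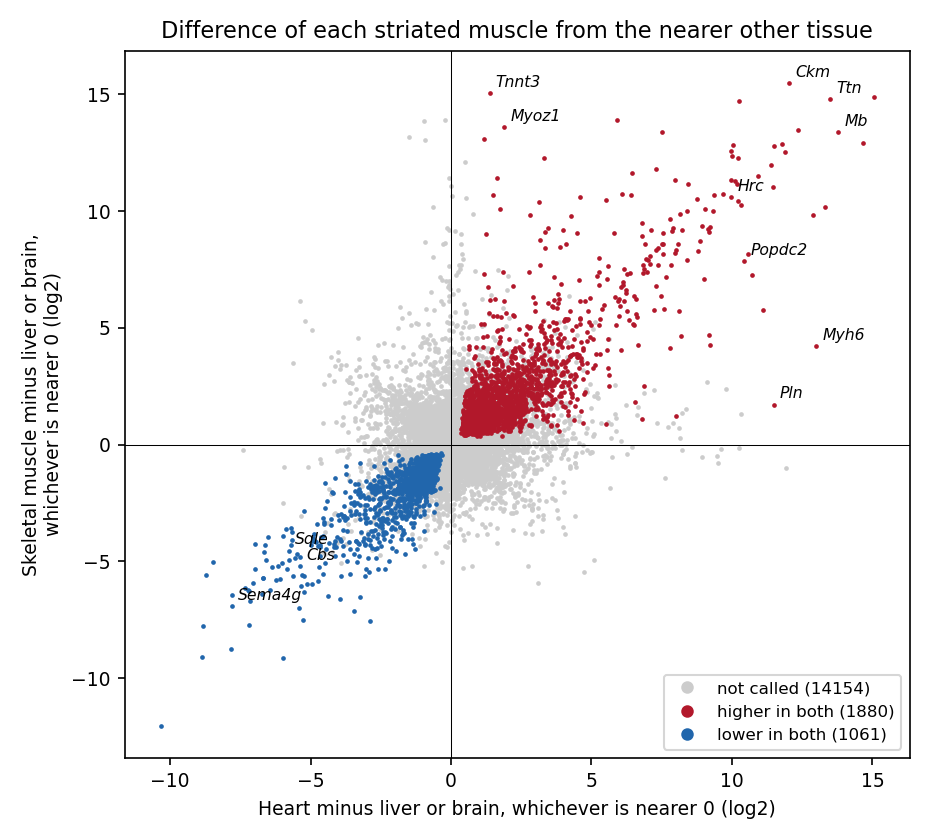
Each point is 1 of 17095 genes; the horizontal axis gives the heart level minus the liver or brain level, whichever difference was nearer 0, and the vertical axis gives the same for skeletal muscle, both on the log2 scale and as means of 3 WT arrays. The 1880 genes higher in both (red) spread along the diagonal up to Ckm, Mb and Ttn, with Pln and Myh6 to the right and Tnnt3 and Myoz1 near the vertical axis, and the 1061 lower genes (blue) reach less far from 0.

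Ckm, the muscle creatine kinase that buffers ATP with creatine phosphate, and Mb, the oxygen-storing protein myoglobin, were chosen as the marker genes. Ckm was at 5.57, 5.79 and 5.56 in the hearts of mice A, B and C and at 8.82, 9.11 and 9.35 in their skeletal muscles, and none of its liver and brain signals was well above background. It was at least 1560-fold higher in each striated muscle than in liver and brain (limma adjusted p = 6.49e-09), and higher in skeletal muscle than in heart (heart minus skeletal muscle -3.45, adjusted p = 3.12e-05). Mb was at 8.87, 9.06 and 9.01 in heart and at 8.45, 8.09 and 9.17 in skeletal muscle. In liver Mb was at -4.25, -5.34 and -7.33 and in brain at -4.94, -4.49 and -4.99, well above background on 1 liver array and on all brain arrays. Its smallest difference was 13.38 (SE 0.61, 10600-fold, adjusted p = 1.1e-07), and heart and skeletal muscle did not differ past the threshold (0.41, adjusted p = 0.594).

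Among the genes well above background on all 12 arrays, the 12 with the largest smallest difference were Hrc, Myl3, Cpt1b, Tcap, Des, Popdc2, Ldb3, Pdlim5, Eno3, Slc2a4, Hspb2 and Asb2. Hrc, a histidine-rich calcium-binding protein of the SR, was at 7.77, 7.85 and 7.99 in heart and at 8.43, 8.70 and 8.36 in skeletal muscle, against -2.64, -1.89 and -1.82 in liver and -2.16, -2.23 and -2.12 in brain (9.98, 1010-fold, adjusted p = 5.98e-10). Tcap, which caps titin at the Z-disc, was at 8.80, 8.98 and 9.09 in heart and at 9.90, 10.06 and 9.78 in skeletal muscle, against 0.92 or less on every liver and brain array (8.23, 301-fold, adjusted p = 1.95e-09). Cpt1b, the muscle form of the enzyme that admits long-chain fatty acids to mitochondria, was at 5.51, 5.52 and 5.70 in heart and at 4.95, 4.97 and 5.30 in skeletal muscle, against -2.97 or less in liver and brain (8.29, 313-fold, adjusted p = 1.47e-09). For these 3 genes the arrays of a tissue lay far closer to each other than to any array across the comparison.

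Eno3, the muscle enolase of glycolysis, lay between 8.21 and 9.96 on the 6 striated arrays and between 0.36 and 0.82 on the other 6 (7.56, 189-fold, adjusted p = 1.2e-10). Slc2a4, the insulin-regulated glucose transporter GLUT4, was at 7.06, 7.10 and 7.19 in heart and at 7.51, 7.93 and 7.71 in skeletal muscle, and its liver levels of -1.53, 2.14 and -1.90 were uneven, with mouse B above the other mice (7.55, 187-fold, adjusted p = 6.54e-05). Its difference did not pass with the slide as a block (7.5, adjusted p = 0.0779). The structural genes Des, which encodes the intermediate filament desmin (7.87, 234-fold), and the Z-disc genes Ldb3 (7.78, 219-fold) and Pdlim5 (7.71, 210-fold) were separated without overlap. Another Pdlim5 probe did not follow in all 4 differences, while a further probe did. Popdc2, a membrane protein that binds cyclic AMP, differed by 7.86 (233-fold) and was higher in heart than in skeletal muscle by 2.57 (adjusted p = 1.47e-06). The small heat shock protein gene Hspb2 (7.35, 164-fold) and Asb2 (7.30, 158-fold), a ubiquitin ligase subunit that acts on filamins, completed this group with Myl3.

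Myl3, the ventricular and slow-muscle essential myosin light chain, differed among the skeletal muscles. It was at 9.36, 9.44 and 9.66 in heart, at 7.69, 2.54 and 9.09 in skeletal muscle and at -3.19 or less in liver and brain (9.82, 907-fold, adjusted p = 0.00022). The low value belonged to mouse B, and with the slide as a block the difference was 9.76 and did not pass (adjusted p = 0.175).

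**Figure D2:**
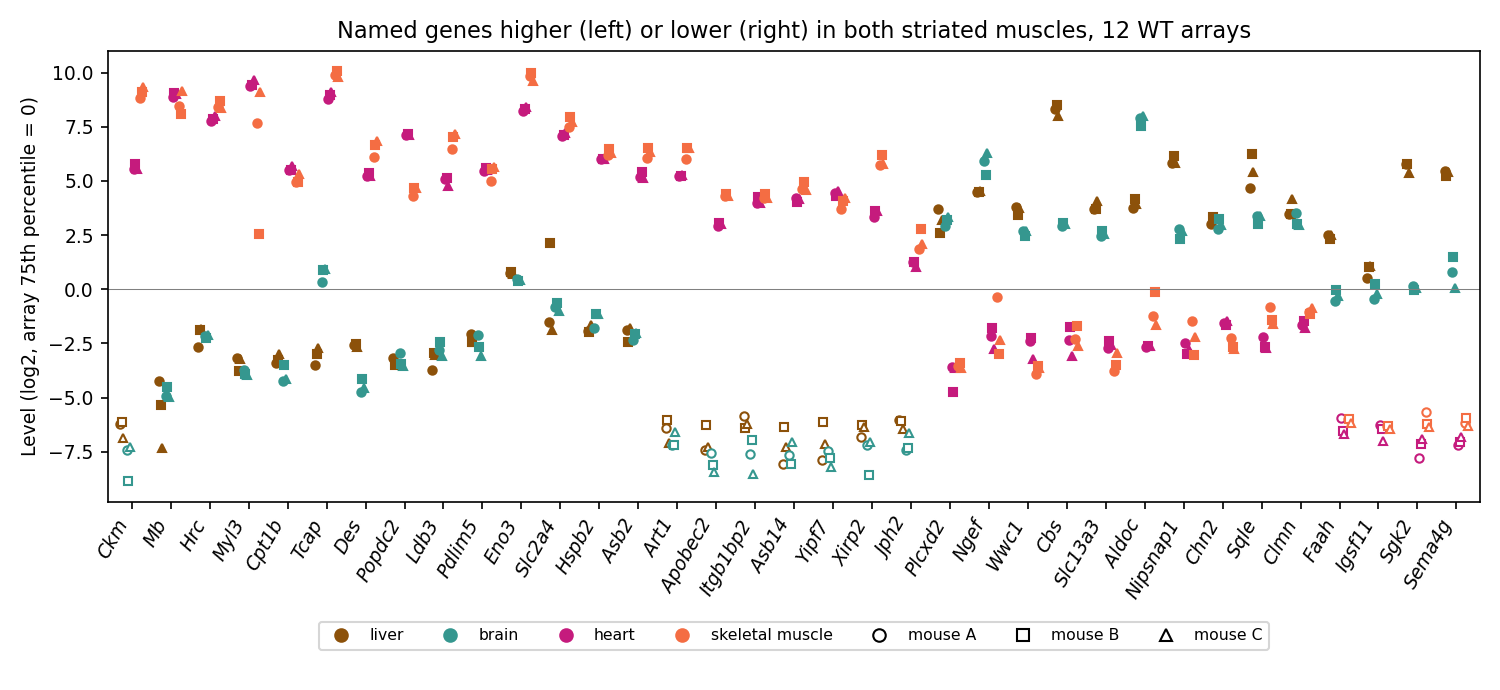
Level of each named gene (log2, 75th percentile of the array at 0) on the 12 WT arrays, 3 a tissue; colours mark tissues, symbols mark mice, and hollow symbols mark a tissue in which no array was well above background, so that the level there is only an upper bound. Striated arrays lie above all liver and brain arrays for the genes on the left and below them for the genes on the right, and the Myl3 value of 2.54 in skeletal muscle of mouse B stands apart from its group.

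Some genes were well above background only in the striated muscles. Beside Ckm, the 7 genes of this kind with the lowest p-values were Art1, Apobec2, Itgb1bp2, Asb14, Yipf7, Xirp2 and Jph2, each well above background on all 6 striated arrays and on none of the liver and brain arrays. Art1, which attaches ADP-ribose to proteins at the cell surface, was at 5.24, 5.25 and 5.29 in heart and at 6.0, 6.53 and 6.52 in skeletal muscle, at least 1200-fold above the detection level of the other tissues. Xirp2, an actin-binding protein of the Z-disc and intercalated disc, was at 3.34, 3.62 and 3.61 in heart and at 5.74, 6.2 and 5.80 in skeletal muscle (at least 360-fold). Jph2, a junctophilin that ties the SR to the surface membrane, was at 1.27, 1.28 and 1.01 in heart and at 1.84, 2.76 and 2.11 in skeletal muscle (at least 71.2-fold). The ubiquitin ligase subunit Asb14 was at least 549-fold higher, the integrin-binding protein Itgb1bp2 (melusin) at least 524-fold, Yipf7 at least 502-fold and Apobec2 at least 250-fold, and the limma adjusted p of the 7 genes was 1.84e-08 or less.

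The bases before the transcription start of the named genes were read from RefSeq (GRCm38.p6) for the 15 of the 21 genes named so far that had an entry. Ckm and Mb are shown as the marker genes, and the other 5 because their windows hold a match to the binding consensus of MEF2 or to the CArG box bound by serum response factor, which with the E-box of the myogenic regulators and the MCAT element of TEAD factors are known from muscle promoters. Each run holds the 250 bases before the start, 5′ to 3′ on the strand of the gene, and capitals mark matches to the MEF2 consensus, the CArG box, MCAT (CATTCC) and the E-box (CANNTG), on either strand.
Ckm (chr7:19410844-19411093, plus strand): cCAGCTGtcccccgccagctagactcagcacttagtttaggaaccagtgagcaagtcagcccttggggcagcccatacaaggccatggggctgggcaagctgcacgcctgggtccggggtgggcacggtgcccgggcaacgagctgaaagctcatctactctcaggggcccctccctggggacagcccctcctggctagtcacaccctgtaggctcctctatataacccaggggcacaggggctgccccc
Mb (chr15:77022788-77023037, minus strand): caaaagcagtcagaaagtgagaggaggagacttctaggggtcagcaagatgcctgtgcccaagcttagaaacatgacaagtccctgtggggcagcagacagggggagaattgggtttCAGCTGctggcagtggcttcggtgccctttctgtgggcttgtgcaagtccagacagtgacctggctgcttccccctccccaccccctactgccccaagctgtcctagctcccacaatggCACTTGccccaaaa
Myl3 (chr9:110763428-110763677, plus strand): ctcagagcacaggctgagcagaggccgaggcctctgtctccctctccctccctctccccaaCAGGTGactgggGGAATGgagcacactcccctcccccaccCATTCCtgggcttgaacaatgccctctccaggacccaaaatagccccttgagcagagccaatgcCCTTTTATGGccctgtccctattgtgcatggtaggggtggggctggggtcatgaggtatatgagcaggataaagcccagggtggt
Ldb3 (chr14:34588682-34588931, minus strand): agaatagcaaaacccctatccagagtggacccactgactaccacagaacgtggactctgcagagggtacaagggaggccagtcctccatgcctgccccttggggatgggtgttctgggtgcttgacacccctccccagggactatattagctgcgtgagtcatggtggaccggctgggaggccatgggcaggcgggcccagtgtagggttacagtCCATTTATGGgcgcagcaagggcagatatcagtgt
Asb2 (chr12:103356002-103356251, minus strand): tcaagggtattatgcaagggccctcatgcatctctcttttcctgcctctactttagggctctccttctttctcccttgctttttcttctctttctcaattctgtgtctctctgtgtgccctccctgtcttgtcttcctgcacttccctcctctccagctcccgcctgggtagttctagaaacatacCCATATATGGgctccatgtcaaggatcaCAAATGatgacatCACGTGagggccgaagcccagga
Xirp2 (chr2:67445752-67446001, plus strand): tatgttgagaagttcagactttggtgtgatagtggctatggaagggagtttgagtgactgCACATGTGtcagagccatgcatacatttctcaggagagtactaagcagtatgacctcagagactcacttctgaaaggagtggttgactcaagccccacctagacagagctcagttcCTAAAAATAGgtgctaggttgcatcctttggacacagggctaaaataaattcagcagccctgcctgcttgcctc
Asb14 (chr14:26894364-26894613, plus strand): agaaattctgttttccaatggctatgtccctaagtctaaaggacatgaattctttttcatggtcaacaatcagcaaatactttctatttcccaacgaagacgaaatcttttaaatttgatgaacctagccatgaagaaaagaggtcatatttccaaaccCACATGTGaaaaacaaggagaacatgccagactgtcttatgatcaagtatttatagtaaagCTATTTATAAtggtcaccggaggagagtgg

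Counted back from the start, the MEF2 match began at -74 in Xirp2 and at -30 in Asb14, each with E-boxes farther upstream. The CArG match began at -85 in Myl3, downstream of MCAT matches at -177 and -149, at -35 in Ldb3 and at -64 in Asb2. The Ckm and Mb windows held E-boxes but no MEF2 or CArG match, and Mb, Ldb3 and Asb2 have more than 1 start in the table, of which 1 is shown. A match is a description of letters, and no binding was measured.

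Over all promoter windows of 300 bases, 250 before and 50 after a start, the MEF2 consensus was present in 15.7% of those of shared higher genes with a smallest difference of 4 or more (22 of 140 windows), in 4.4% at 2 to 4, in 1.8% at 1 to 2 and in 2.1% below 1. It was present in 2.0% of the windows of all tested genes, in 1.5% of those of shared lower genes and in 3.2% of all windows in the table. It was present in 2.5% of windows of genes highest in heart but not shared and in 2.2% of those highest in skeletal muscle but not shared. Genes with a match in the group past 4 included Ttn, Xirp2, Asb14, Klhl41, Myoz2, Pgam2, Ppp1r3a, Myh8 and Rpl3l. The CArG box was present in 6.4% of windows past 4, against 1.4% of tested genes, among them those of Actc1, Myom1, Myl3, Ldb3 and Asb2. Promoter composition differed as well, since TATAAA was present in 22.9% of windows past 4 against 9.3% of tested genes, and the GC box GGGCGG in 29.3% against 54.9%, and 8 of the 22 MEF2 windows had the match overlapping TATAAA. MCAT was present in 25.0% against 12.9% and the E-box in 80.7% against 66.7%. The part of base composition in these shares was not tested.

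**Figure D3:**
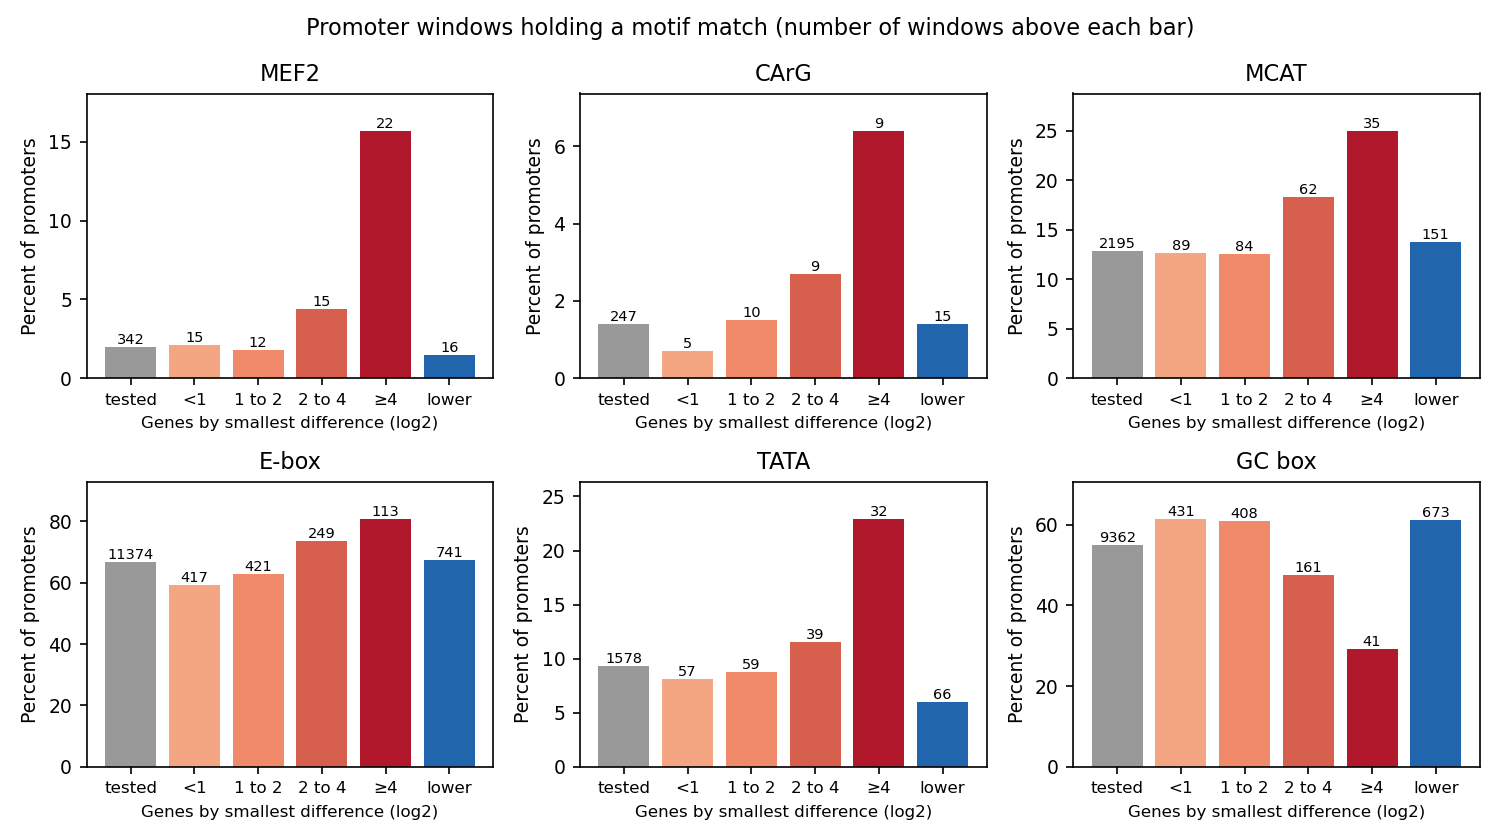
Percent of RefSeq promoter windows of 300 bases that hold a match to each of 6 motifs on either strand, for all tested genes, for shared higher genes by smallest difference (log2) and for shared lower genes; the number of windows with a match stands above each bar. MEF2 and CArG matches are most frequent in windows of genes with a difference of 4 or more (15.7% and 6.4%), where the GC box is least frequent (29.3%).

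The contractile apparatus held many of the largest differences, and its lists differed in how far heart and skeletal muscle used the same genes. Of 40 Z-disc, titin and M-band genes, 30 were higher in both muscles, against 11.0% of all genes, with a median difference of striated from other arrays of 7.69 against 0.11 over all genes. Ttn, which encodes the giant spring protein titin, was at 8.06, 8.09 and 8.19 in heart and at 9.38, 9.55 and 9.28 in skeletal muscle, at least 8650-fold above liver and brain (adjusted p = 8.83e-11), and its 3 other probes differed in the same direction. Myom1, which cross-links myosin at the M-band, was at 6.14, 6.24 and 6.16 in heart and at 6.97, 7.15 and 7.32 in skeletal muscle (10.18, 1160-fold). Flnc, the muscle filamin, differed by 6.92 (121-fold, adjusted p = 2.82e-10). Of this list, 29 genes passed with the slide as a block.

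By contrast, 7 of 21 thick filament and myosin genes were higher in both muscles, while 2 more were highest in heart and 7 more highest in skeletal muscle without being shared. The fast myosin heavy chains Myh4 and Myh1 were far higher in skeletal muscle (heart minus skeletal muscle -17.18 and -16.3), and Mybpc3, cardiac myosin-binding protein C, was above its skeletal muscle level in heart by 14.66. Shared members included the light chain Myl1 (7.5) and, at 8.75, the perinatal heavy chain Myh8, whose probes may share sequence with other myosin genes. Only 2 of the list passed with the slide as a block. Of 22 thin filament genes, 11 were higher in both, led by Actc1, cardiac actin (12.92, 7750-fold), and Lmod3, a leiomodin that lengthens thin filaments (6.24), and Tpm1, tropomyosin, differed by 6.26 (76.8-fold), but 3 of its 4 other probes did not share the direction in all differences. The troponin I gene Tnni3 was above its skeletal muscle level in heart by 14.14.

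Genes of slow fibres were uneven among the skeletal muscles, which was seen after their values were known. Myh7, the slow and cardiac beta myosin heavy chain, was at 7.86, 2.57 and 8.54 in skeletal muscle of mice A, B and C, against 5.95, 5.31 and 4.86 in heart, and was not called shared (adjusted p = 0.187). Tnnc1, slow and cardiac troponin C, was at 3.1, -1.05 and 4.62 in skeletal muscle and at 7.13, 7.20 and 7.20 in heart, and its difference of 4.26 (adjusted p = 0.0177) did not pass without the skeletal muscle of mouse A (3.82, adjusted p = 0.0689) or the brain of mouse B (4.20, adjusted p = 0.0557), or with the slide as a block (4.23, adjusted p = 0.576). Myl2, Tnni1, Tnnt1, Atp2a2, Casq2 and Csrp3 were also lowest in the muscle of mouse B. Without that array, 1831 genes were higher and 1046 lower, and Myh7b passed (4.18, adjusted p = 0.000125, against 2.35 and 0.336 with it). In the hearts, atrial genes stood apart in the same mouse. Sln, an inhibitor of the SR calcium pump, was at -2.64, 5.75 and -6.41, Myl7, the atrial regulatory light chain, at -1.91, 4.48 and -3.04 and Myl4, the atrial essential light chain, at 1.33, 7.20 and 1.32. Without that heart, 1696 genes were higher and 959 lower.

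Genes that link the contractile apparatus to the membrane and couple excitation to it were shared in part. Of 25 genes of the dystrophin complex and costamere, 19 were higher in both muscles and 1 was lower, against 11.0% and 6.21% of all genes. The median difference was 4.31, and the higher genes included Cav3, muscle caveolin (9.21), and Sgca, a sarcoglycan (9.04). Of 37 genes of excitation-contraction coupling and SR calcium, 17 were higher and 1 lower, with 7 more highest in heart and 7 more highest in skeletal muscle. Trdn, triadin of the calcium release complex (9.98), and Trim72, which reseals injured membranes (at least 627-fold), were shared, whereas the release channels were split by muscle type. Ryr1 was at 7.81, 8.36 and 8.18 in skeletal muscle and at -4.09, -4.14 and -4.01 in heart, and Ryr2 was above its skeletal muscle level in heart by 11.61. Of the coupling list, 9 genes passed with the slide as a block, and of the dystrophin list 14.

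Energy supply was the other broad group. Of 76 genes of the respiratory chain and ATP synthase, 64 were higher in both muscles and none lower, against 11.0% and 6.21% of all genes. Their differences were small beside those of the sarcomere (median smallest difference 1.04, 36 at 1 or more and 3 at 4 or more). These calls depended on the processing, since 52 to 64 passed under the other scalings and 8 with the slide as a block. Of 30 genes of the TCA cycle and pyruvate dehydrogenase, 21 were higher (7 with the slide as a block), with citrate synthase Cs at 2.29 (4.88-fold), Idh3a at 2.16 and Ogdh at 2.13. Another Ogdh probe did not share the direction in all differences, while a further probe did. Of 44 genes of fatty acid uptake and oxidation, 12 were higher in both and 6 more were highest in heart without being shared (5 shared with the slide as a block).

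Lpl, lipoprotein lipase, which frees fatty acids from circulating triglyceride, was at 8.37, 8.25 and 8.44 in heart and at 6.06, 5.42 and 6.51 in skeletal muscle, against 0.66 or less in liver and brain (5.74, 53.6-fold, adjusted p = 1.18e-07). Fabp4, the fatty acid binding protein of fat and endothelium, was at 7.45, 7.32 and 7.82 in heart and at 7.51, 6.90 and 6.72 in skeletal muscle (5.49, 44.8-fold). Markers of other cells moved with these genes. The mean level of 10 adipocyte markers lay between 0.1 and 2.86 on skeletal muscle arrays and between -2.1 and -1.36 on heart arrays, against -4.36 to -3.14 for liver and -5.5 to -5.1 for brain, with 3 of 10 higher in both muscles, and Adipoq was at 4.17, 3.73 and 2.69 in skeletal muscle and at -1.52, -0.43 and -2.72 in heart. The endothelial list lay between 2.89 and 3.04 on heart arrays and between 1.62 and 2.17 on skeletal muscle arrays, against 0.75 to 1.04 for liver and 0.3 to 0.41 for brain (6 of 10 higher), and 7 of 10 fibroblast and 5 of 8 vascular smooth muscle markers were also higher in both. None of the macrophage or erythroid markers was, against 11.0% of all genes. The part of these cells in the shared genes was not tested. Pdk4, the kinase that turns off pyruvate dehydrogenase in fasting, was at 5.65, 4.59 and 6.83 in heart and at 5.94, 4.41 and 7.18 in skeletal muscle of the same mice in turn, so that mouse B was lowest and mouse C highest in both (smallest difference 4.98, 31.5-fold, adjusted p = 0.000275).

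Of 13 genes of phosphagen, oxygen and adenylate metabolism, 9 were higher in both muscles and 2 lower, against 11.0% and 6.21% of all genes. Ckmt2, the mitochondrial creatine kinase of striated muscle, was at 8.70, 8.70 and 8.91 in heart and at 8.45, 8.36 and 8.93 in skeletal muscle, at least 12000-fold above the other tissues. Of 45 glycogen and glycolysis genes, 16 (35.6%) were higher and 4 (8.9%) lower, the latter near the share over all genes. The median difference of this list was 1.26, against 0.11 over all genes. Hk2, the hexokinase of insulin-sensitive tissue, differed by 6.88 (118-fold), Pgam2, the muscle phosphoglycerate mutase, by 6.80 (111-fold), and Ppp1r3a, which directs a phosphatase to glycogen, was at least 427-fold higher.

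Forms of the same protein that are encoded by separate genes were compared. In 20 pairs of a muscle form and another form of the same protein, the muscle form was higher in both muscles in 19, against 11.0% of all genes. The muscle forms were picked as such, with earlier results of these data known, so this share was largely set by the choice. Pygm was counted with both Pygl and Pygb. The other form was lower in 4 pairs (Eno1, Pgam1, Ckmt1 and Adss) and higher in 2, against 6.21% and 11.0% of all genes. Cox6a2, a respiratory chain subunit, was at 9.39 in heart and 9.80 in skeletal muscle against -2.62 in liver and 2.43 in brain (means of 3 arrays), while its counterpart Cox6a1 was at 7.78, 6.69, 8.97 and 8.07 in the same order. Cox8b and Cox8a behaved alike, with Cox8b at 8.46 and 8.77 against -3.99 and 0.44 and Cox8a at 7.29 and 5.96 against 8.22 and 7.59. Neither Cox6a1 nor Cox8a was called lower (limma adjusted p = 0.902 and 0.406), although both passed with quantile normalization. Cox8a also passed with the 75th percentile (-0.65, limma adjusted p = 0.0157) or the median (-0.58, adjusted p = 0.0364) over probes detected on all arrays. It passed with array weights as well (-0.38, adjusted p = 0.0357). Among glycolytic enzymes, Eno1 was lower by 1.28 and Pgam1 by 1.61 on the log2 scale at the smallest difference, while Pfkl, the other form of Pfkm, was not called, and Ckmt1, the brain mitochondrial creatine kinase, was lower by 0.71. Acacb, the exception, was at 5.41 ± 0.96 in liver (SD, n = 3), against 6.11 ± 0.22 in heart (0.70, limma adjusted p = 0.384), but passed without the liver of mouse B (1.25, adjusted p = 0.000962) and with quantile normalization (adjusted p = 0.0264). Flna, the broad filamin, was higher in both muscles along with Flnc, by 1.87 (adjusted p = 1.82e-05), and Cox7a2 along with Cox7a1, by 0.60 (adjusted p = 0.0494). With the mouse as a block the Cox7a2 difference did not pass (0.60, adjusted p = 0.0858), and it was lost without most single arrays. The lower calls of Ckmt1 and Eno1 were lost with the slide as a block (-0.24, adjusted p = 1.0, and -1.10, adjusted p = 0.179), and that of Ckmt1 also without the liver of mouse B or C or the skeletal muscle of mouse A or C (-0.73 to -0.60).

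**Figure D4:**
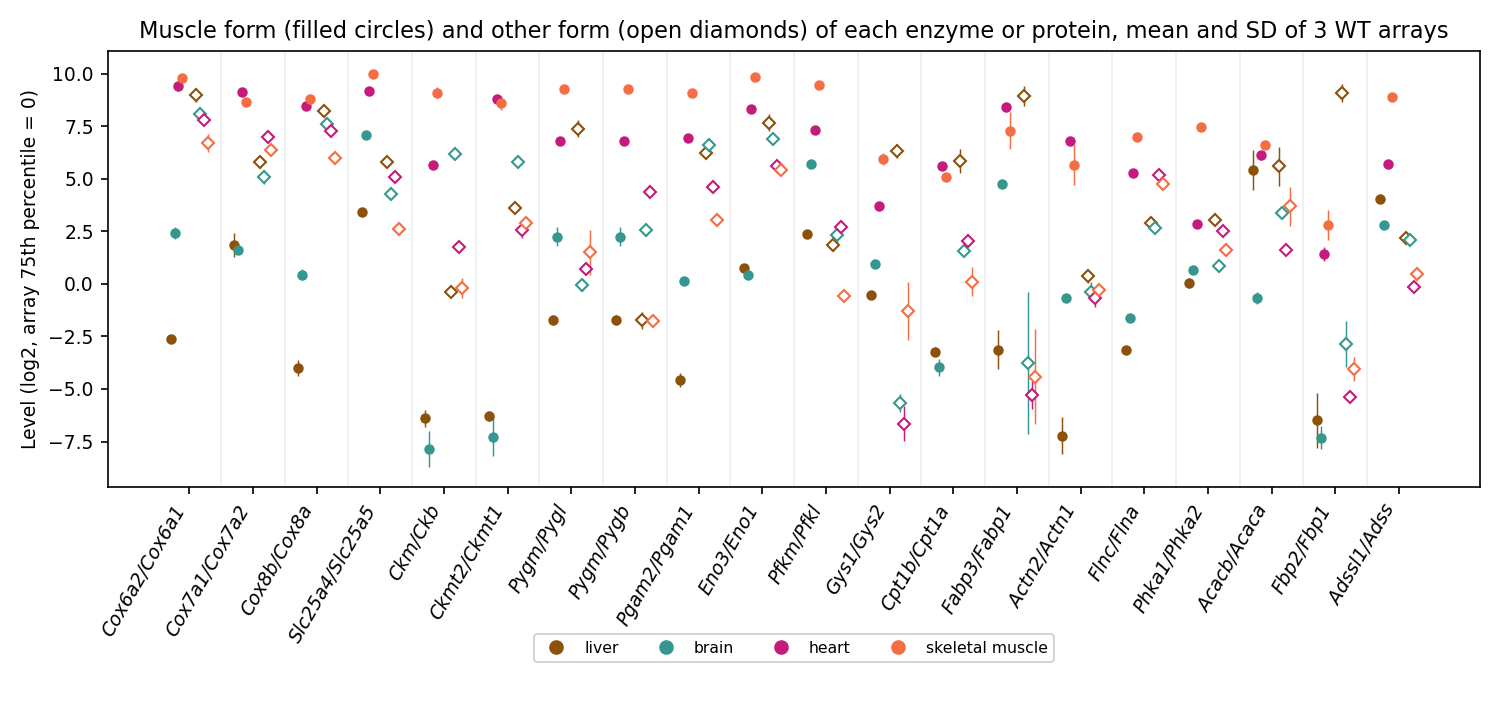
Mean level and SD of 3 WT arrays (log2, 75th percentile of the array at 0) of 20 pairs, with the muscle form as filled circles and the other form as open diamonds, coloured by tissue. Filled circles of heart and skeletal muscle lie above those of liver and brain in 19 pairs past the test, the exception being Acacb, while the open diamonds show no common order. Pygm is drawn with both Pygl and Pygb.

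The list of muscle chaperones and protein turnover had the highest share of calls. It was put together around muscle genes, with earlier results of these data known, so its share does not measure protein upkeep in general. Of its 41 tested genes, 37 were higher in both muscles, against 11.0% of all genes. The count was 36 or 37 under the other scalings and 30 with the slide as a block. The median difference was 6.08, and 21 genes differed by 4 or more. Trim63, which encodes the ubiquitin ligase MuRF1 of muscle atrophy, was at 5.14, 5.09 and 5.27 in heart and at 5.72, 5.71 and 5.81 in skeletal muscle, at least 1120-fold above liver and brain. Fbxo32, the ligase atrogin-1, differed by 3.66 (12.6-fold) and Klhl31 by 10.02 (1040-fold). The small heat shock protein Cryab was at 8.60, 8.67 and 8.74 in heart and at 8.13, 8.51 and 8.67 in skeletal muscle, but was also at 5.16, 5.52 and 5.08 in brain, which left a difference of 3.18 (9.08-fold).

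Regulators differed less. Of 39 transcription and chromatin genes tested, 13 were higher in both muscles (10 to 16 under other scalings), against 11.0% of all genes. Without being shared, 10 more were highest in heart and 9 more in skeletal muscle. Among the former were Gata4 and Nkx2-5, the cardiac transcription factors, at 9.62 and 10.42 above skeletal muscle on the log2 scale. Casz1 led the shared members (4.87, 29.2-fold), and the MCAT-binding factor Tead1 differed by 3.29 (9.77-fold). Smyd1, a muscle methyltransferase (2.24), serum response factor Srf (1.89) and Mef2a (1.49) passed as well. Another Mef2a probe did not share the direction in all 4 differences, while a further probe did. Mef2c was at -0.18 ± 0.10 in heart and 0.44 ± 0.32 in brain (SD, n = 3) and was not shared. Perm1, a regulator of oxidative metabolism counted in the fatty acid list, differed by 7.91 (241-fold). Of 32 membrane channels and secreted factors, 10 were higher in both, among them the potassium channel Kcnj2 (3.34), Abcc9, a subunit of ATP-sensitive potassium channels (2.80), and the cytokine Il15 (2.34, and 1.96 with an adjusted p of 0.0726 with the slide as a block).

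**Figure D5:**
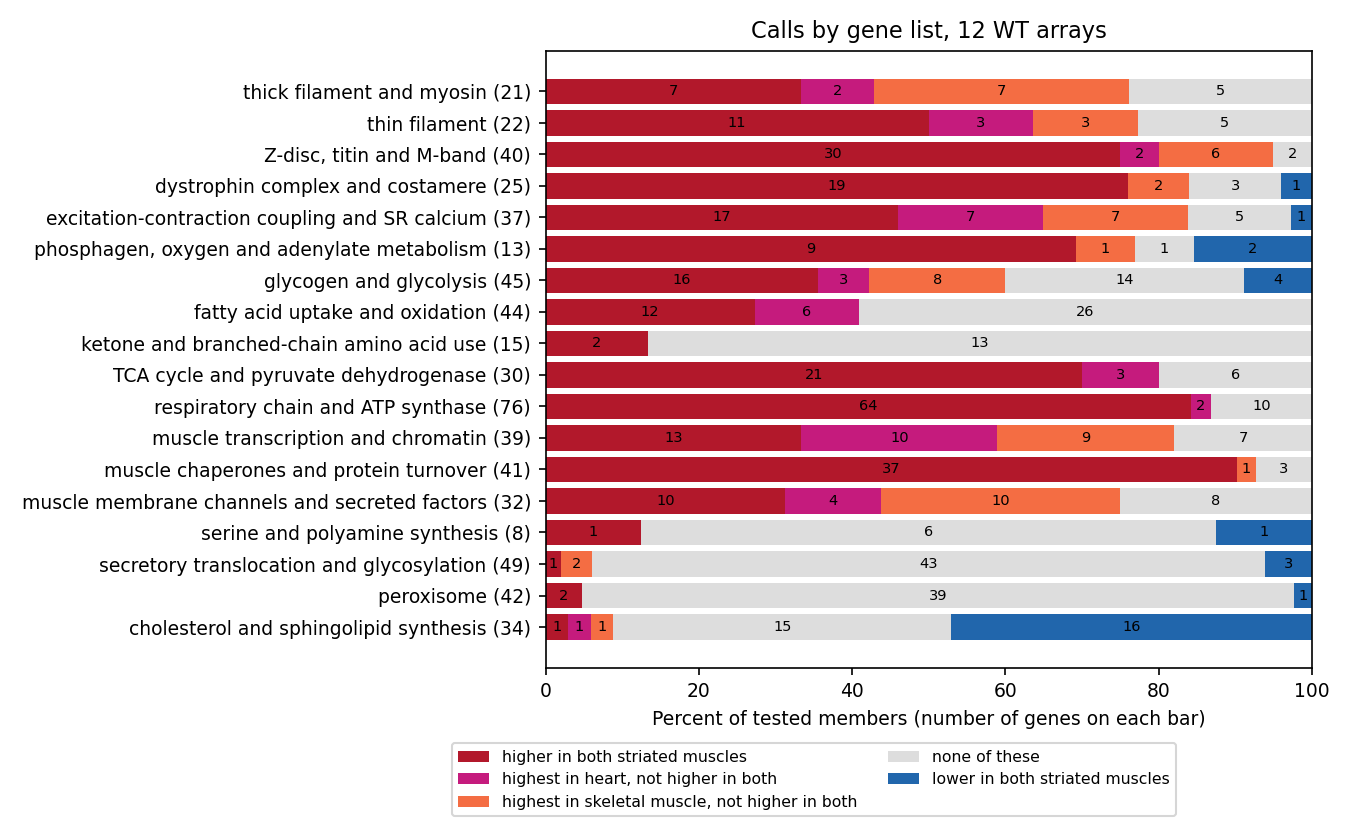
Percent of the tested members of each gene list (number tested in parentheses) by call on the 12 WT arrays, with the number of genes on each bar. The chaperone, respiratory chain, dystrophin and Z-disc lists are mostly shared (red), the myosin, coupling and transcription lists hold many members highest in heart or in skeletal muscle only, and the cholesterol and sphingolipid list holds most of the lower calls (blue).

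The gene with the largest smallest difference among those lower in both striated muscles and well above background on all 12 arrays was Plcxd2. Plcxd2, a phospholipase C-like protein, was at 3.70, 2.62 and 3.19 in liver and at 2.93, 3.21 and 3.35 in brain, against -3.60, -4.73 and -3.64 in heart and -3.56, -3.41 and -3.64 in skeletal muscle (-6.70, 104-fold lower, adjusted p = 1.71e-07). Cbs, which makes cystathionine from homocysteine, was at 8.33, 8.51 and 8.01 in liver and at 2.90, 3.06 and 3.00 in brain, and at -1.68 or less on every striated array (-5.19, 36.4-fold lower). Aldoc, the aldolase of brain, was 31.0-fold lower, Ngef, a guanine nucleotide exchange factor, 84.4-fold, Wwc1 37.8-fold, Slc13a3, a dicarboxylate transporter, 35.0-fold, Nipsnap1 28.3-fold, Chn2 23.5-fold and Clmn 18.1-fold. Of these, Ngef did not pass with the slide as a block (-5.47, adjusted p = 0.0691). The 4 genes named among those not well above background on any striated array were Sema4g (at least 29.0-fold lower), Sgk2 (at least 17.6-fold), Igsf11 (at least 15.2-fold) and Faah, which degrades anandamide (at least 13.6-fold).

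Cholesterol synthesis was the list with the most lower calls. Of 34 genes of cholesterol and sphingolipid synthesis, 16 were lower in both muscles, against 6.21% of all genes, with a median difference of -2.49, and 16 to 21 were lower under the other scalings and 5 with the slide as a block. Sqle, squalene epoxidase, was at 4.66, 6.23 and 5.41 in liver and at 3.37, 3.03 and 3.39 in brain, against -2.18, -2.67 and -2.69 in heart and -0.81, -1.41 and -1.60 in skeletal muscle (-4.54, 23.3-fold lower, adjusted p = 5.82e-06). Smpd1, a sphingomyelinase, was the only member higher, by 0.48 (adjusted p = 0.0352), and no member was higher under the other scalings, with the mouse or the slide as a block, or without any 1 of the brain or heart arrays. Of 49 genes of secretory translocation and glycosylation, 1 was higher and 3 lower, and of 42 peroxisome genes, 2 were higher and 1 lower. These higher shares (2.0% and 4.8%) were below the 11.0% of all genes, and the lower shares (6.1% and 2.4%) did not exceed 6.21%. Under the other scalings, 3 to 6 of the former and 1 to 3 of the latter were lower. In ketone and branched-chain amino acid use 2 of 15 genes were higher (against 11.0% of all genes, Oxct1 by 1.63, or 1.32 with an adjusted p of 0.0581 with the slide as a block, and Bckdk by 1.83), and in serine and polyamine synthesis 1 of 8 was higher and 1 lower.

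Sharing a direction did not mean equal levels. Heart and skeletal muscle differed past the threshold in 1042 of the 1880 higher genes (55.4%, against 54.2% of all genes), 380 of them higher in heart and 662 in skeletal muscle, and the median size of the difference was 0.57 against 0.68 over all genes. For the lower genes, 486 (45.8%) differed, with a median of 0.47. In all, 906 genes (5.30%) were highest in heart and 1644 (9.62%) in skeletal muscle. Among shared genes, Pln, phospholamban of the SR calcium pump, was above its skeletal muscle level in heart by 9.78 and Myh6, the alpha myosin heavy chain, by 8.77, although another Myh6 probe did not share the direction, and Ankrd1 by 5.33, Tnnc1 by 4.95 and Rrad by 4.72. In the other direction, skeletal muscle was above heart for fast troponin T, Tnnt3 (heart minus skeletal muscle -13.68), fast troponin C, Tnnc2 (-11.89), Myoz1 (-11.72), the fast calsequestrin Casq1 (-9.78) and Dusp13 (-9.17). Tnnt3 was at -3.63, -3.54 and -3.93 in heart. In the muscle where they were lower, Pln, Tnnt3, Tnnc2 and Casq1 were less than 2 log2 units above liver or brain, and their shared call was lost without several single arrays and with the slide as a block (smallest differences 1.5, 1.66, 0.92 and 1.58), and that of Tnnc2 also with the mouse as a block (1.18, adjusted p = 0.0669). The calls of Myh6, Tnnc1, Rrad and Dusp13 did not pass with the slide as a block either (3.40, 4.23, 2.05 and 1.71). Of these 10 genes, Myh6 and Ankrd1 were also called in the KI arrays.

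In the 12 arrays of KI mice, fitted alone, 1330 genes (7.78%) were higher and 731 (4.28%) lower in both striated muscles. They included 1216 of the 1880 WT higher genes (64.7%, or 91.4% of the KI calls) and 670 of the 1061 lower genes (63.1%, or 91.7%). All 4 differences had the WT direction in 1866 and 1053 genes. Arrays of mouse F stood apart, since its liver had the skeletal myofibre list at 0.42, against -4.65 and -4.74 in the other KI livers, and Mb at 2.07 against -7.09 and -7.34, and its brain had the hepatocyte list at 4.86 against -2.14 and -1.73. Without that mouse, which left only mice D and E in each tissue, 623 of the higher and 316 of the lower WT genes were called. The smaller number of arrays and the absence of mouse F cannot be told apart in this fall. Tested across all 24 arrays, the difference between striated and other tissues depended on genotype in 0 genes after adjustment by limma, with 371 (2.17%) at an unadjusted p under 0.05, 104 of them among the 2941 shared genes (3.54%). The arrays of mouse F were part of this test, and it was not repeated without them. The lack of calls therefore does not show that genotype had no effect.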

How the data were processed

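Total RNA of liver, brain, heart and skeletal muscle was measured on 1-colour Agilent arrays, 62976 spots each, 8 arrays a slide on 3 slides. The authors scanned the arrays and deposited Feature Extraction (12.0.3.1) files with Cy3 intensity values; no spot was saturated. A table of scores deposited by the authors (33912 features, z-scores within each array) was used as an alternative. The array design names mm9; promoters came from RefSeq on GRCm38.p6, and no coordinates were converted between builds.

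Control spots and outlier flags (130 to 237 spots a WT array) were left out. The log2 processed signal minus the 75th percentile of its array was averaged over spots of a probe. Of 55681 probes, 28331 (50.9%) had 1 gene symbol in the file and gave 21368 genes. 1 probe a gene was used, that with the highest mean over 24 arrays, and 17095 genes were tested, those with all 3 arrays of some WT group well above background. limma 3.58.1 (lmFit on group means, eBayes) in R 4.3.3 gave the 4 differences, of which the largest p was adjusted by Benjamini-Hochberg over all genes. "At least" folds raise a tissue not well above background on any array to the lowest level that was, array by array. 74 tested genes had a missing value on 1 or more arrays. The fits were tested on simulated data. Python 3.11.15 with numpy 2.4.6, pandas 2.3.3 and matplotlib 3.10.9 made summaries and plots. With 3 arrays a group, their number limits the precision, and p-values measure the spread between these mice.

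The genes and lists were chosen with earlier results of these data known. Named genes were Ckm and Mb; the 12 genes of largest smallest difference measured on all 12 arrays, and 10 lower ones; the 8 and 4 of lowest p absent from the other side; up to 4 called members a list and members highest in 1 muscle; the isoform pairs; and the 5 shared genes a direction with the largest heart to muscle difference. Myh7, Myl2, Myl4, Myl7, Tnnt1, Sln, Casq2, Sgca, Trdn, Pdk4, Mef2a, Cryab, Fbxo32, Trim63, Smpd1 and Adipoq were named after their values were seen. The same mice gave all tissues; residuals of the same mouse correlated at 0.0102 on average (-0.2479 to 0.3264). Alternatives covered scaling, background correction, filters, probe choice, blocks, weights and leaving out each array.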

Additional observations from a re-analysis of the deposited data

How the results depend on the processing

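Under the other scalings, background correction, filters, probe rules, weights and fits, 1575 to 1982 genes were higher and 851 to 1383 lower where the rule and the samples were kept, against 1880 and 1061. Requiring a difference of 1 or more left 1176 higher and 679 lower genes, of which 641 of the higher also differed between heart and skeletal muscle. The slide as a block, which heart and skeletal muscle, liver and brain fill unevenly, left 619 higher, 337 lower, 241 highest in heart, 362 highest in skeletal muscle and 253 higher genes that differed between the muscles. The replicate block (mouse) gave 1751 higher and 1026 lower genes, 1729 and 991 of them the same genes, and among the 150 genes followed it ended the calls of Cox7a2 and Tnnc2 and added Myom3 (1.19, limma adjusted p = 0.0464), and it also ended that of Smpd1. Adjusting each difference by itself gave 2293 and 1327. Leaving out 1 WT array at a time gave 1625 to 1831 higher and 924 to 1046 lower genes, 634 to 868 highest in heart, 1245 to 1636 highest in skeletal muscle and 776 to 1034 higher genes that differed between the muscles. Ckm then ranged from 11.81 to 12.18 and Mb from 13.08 to 13.62, and over all alternatives on the log2 scale they stayed at 8.87 to 12.72 and 11.72 to 13.62 with largest adjusted p-values of 5.07e-05 and 0.00153 (limma). Among KI arrays, leaving out mouse F, an alternative chosen after seeing the data that kept only mice D and E, left 623 of the higher and 316 of the lower genes called. No result reversed. Of 3450 values of 150 named genes, 3299 kept their side of the threshold, 111 lost it, 24 of them with the slide as a block, and 40 gained it. The cause of these changes was not tested. Signal over background limited the genes at or under the detection level, whose differences are bounds.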
